A study of Mus musculus with 2 samples.

Results

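Control *Lypd1*-high cells are spiral ganglion neurons in which the RNA of *Lypd1*, a marker of the type Ic subtype, was abundant. They were chosen by a measured value: a cell of the control library was a member when *Lypd1* reached 1000 CPM (counts scaled to a fixed total per cell), which is 10 unique molecular identifiers (UMIs, tags that count RNA molecules) per 10000. The rule took 180 of the 462 cells of the control library and of the 869 cells in the series. They were described against 224 control cells with *Lypd1* below 100 CPM and *Calb2* of at least 1000 CPM, called *Calb2*-high or reference cells here. The control library, iCON, came from mice of genotype Runx1-CreER/+; Ai14/+, and the iCKO library from mice of genotype Runx1-CreER/Runx1F; Ai14/+, where F is a floxed *Runx1* allele. Mice of both genotypes thus carried the tamoxifen-inducible Runx1-CreER driver and the Ai14 tdTomato reporter, and all received tamoxifen on postnatal day 1 (P1). Cochleae were collected from mice of both sexes at P27 to P29 and digested, and tdTomato-positive cells were sorted, so only cells in which the *Runx1* driver had acted on the reporter were enriched. There was 1 library per genotype and the number of animals is not given, so no test between libraries or cells was possible and no p-value is given. Intervals are at 95% and cover counting error only.

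Spiral ganglion neurons carry sound information from the cochlea to the brainstem. Type I neurons contact inner hair cells and are known in the adult mouse as the molecular subtypes Ia, Ib and Ic, while type II neurons contact outer hair cells. Ia neurons are rich in calretinin, encoded by *Calb2*, Ib neurons express the calcium buffer calbindin, encoded by *Calb1*, and Ic neurons express *Lypd1* and the transcription factor *Pou4f1*. *Lypd1* encodes a membrane-anchored protein of the Ly6 family, whose members are known to modulate nicotinic acetylcholine receptors. *Runx1* encodes a DNA-binding transcription factor of the Runt family.

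*Lypd1* ranged from 10.5 to 66.4 UMIs per 10000 in the 180 members, with a median of 42.2. The 3 members nearest the threshold had 10.5, 11.3 and 12.9 per 10000, and the 3 control cells nearest below it had 7.62, 7.42 and 6.45. Few cells lay near the limit: lowering it to 500 CPM gave 183 cells and raising it to 2000 CPM gave 167. *Calb2* ran from 0 to 169.1 per 10000 in members with a median of 1.81, and 33 members had no *Calb2* UMI. Low values of it cannot be told apart from free RNA: the 84 members below 100 CPM had a median of 0.216 per 10000 (median depth 50777 UMIs), and the 32 control cells low in both genes had 0.331 (median depth 32141), 10 of them with no UMI. In the reference cells *Calb2* had a median of 69.7 and a range of 10.5 to 337.4, so the classes overlapped in *Calb2*. These values follow from the rule and describe the cells only. The remaining control cells were 26 with *Lypd1* between both limits and 32 that were low in *Lypd1* and *Calb2* alike.

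Members made up 39.0% of the control library (exact binomial interval 34.5% to 43.6%). The share was 38.5% of the 252 cells with *Xist* RNA and no Y-linked RNA, and 39.1% of the 202 cells with Y-linked RNA and no *Xist*, so cells of animals of both sexes contributed. Among control cells with little myelin-gene RNA (fewer than 10 UMIs of 5 myelin genes) members were 28.7% (20.1% to 38.6%), against 41.8% (36.7% to 47.1%) of the others. The tdTomato sort precedes these shares, and its part in them was not tested. Members held 18612 to 93322 UMIs per cell (median 50681), and reference cells held 16168 to 75942 (median 50275), so depth hardly differed between the classes. No cell barcode was shared between the libraries.

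Type Ic markers that the rule did not use were then viewed. The members and the marker lists were chosen with earlier results of these data known, so this is no independent check of the label. At least 1 UMI of *Grm8*, a presynaptic metabotropic glutamate receptor that lowers transmitter release, was present in 175 of 180 members and in 18 of 224 reference cells. *Pou4f1*, a POU-domain factor of sensory neurons also called Brn3a, was present in 179 members and 56 reference cells. Both genes were present together in 174 members and 10 reference cells. The Ic marker *Ntng1*, which encodes the synaptic adhesion protein netrin-G1, was less selective, with a UMI in 179 members and 156 reference cells. After each cell was thinned to 20000 UMIs, *Grm8* was present in 83.7% of members and 4.07% of reference cells, and *Pou4f1* in 82.6% and 12.7%. Members therefore carried the Ic markers together, while most reference cells had no *Grm8* UMI.

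Markers of other cells were looked for in the members. Of 6 type II neuron markers, *Th* and *Plk5* were at 0, and *Prph* gave 1 UMI in all members together. *Gata3* was present in 136 of 180 members with 260 of the list's 280 UMIs, and the summed level of the list ran from 0 to 1.24 per 10000. The mean of *Gata3* was 0.296 per 10000 in members and 0.405 in reference cells, against 6.89 in the 32 control cells low in *Lypd1* and *Calb2*. Of 5 myeloid genes 2 are listed, *Csf1r* and *Aif1*, and both were at 0. The 8 genes of Schwann and satellite glia were all present, with a summed level of 0 to 131.3 and a median of 42.8 per 10000 in members, and of 0 to 145.3 and a median of 35.9 in reference cells. RNA of glial genes was therefore counted in cells of both classes. Its origin and its part in the differences below were not tested. In cells with little myelin-gene RNA alone (29 members and 52 reference cells), the log2 ratios of the genes described next were 4.33 for *Ccdc109b*, 3.96 for *Grm8*, 3.38 for *Sphkap*, 3.44 for *Pou4f1* and -3.07 for *B3gat1*, on the scale defined below. All 5 fibroblast or bone genes were also present, with a summed level of 0 to 8.71 and a median of 0.845 per 10000 in members and of 0 to 6.93 and 0.943 in reference cells; *Col1a2*, a collagen gene, had a UMI in 137 members and 166 reference cells. Their part in the results was not tested. Of the hair cell genes *Otof* was at 0, and the list gave 22 UMIs in members; the listed B cell and endothelial genes gave 1 UMI each, and erythroid genes were not analysed here. All 6 pan-neuronal markers were detected in the members.

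**Figure D1:**
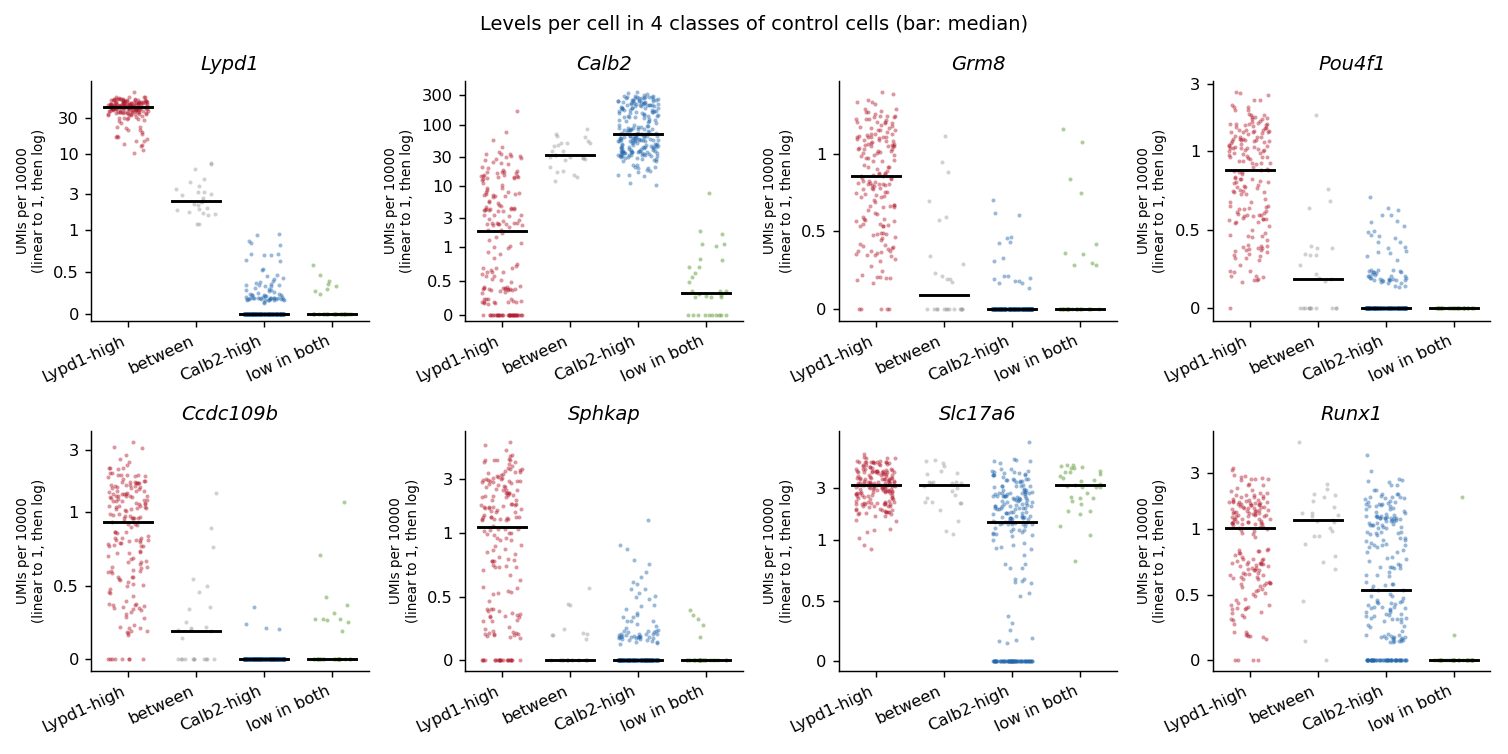
Levels of 8 genes in single control cells, in UMIs per 10000 on a scale that is linear to 1 and logarithmic above, for 180 *Lypd1*-high, 26 between, 224 *Calb2*-high and 32 low-in-both cells. Points are cells and bars are medians; *Lypd1* and *Calb2* define the classes, while *Ccdc109b* is at 0 in nearly all *Calb2*-high cells and *Slc17a6* and *Runx1* overlap widely.

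Members and reference cells differed in few genes. Ratios below are log2 of the mean level in members over that in reference cells, after adding 0.05 per 10000 to each mean, for genes that in either class averaged 0.5 per 10000 or more and had a UMI in 25% of cells or more. Of 3726 such genes, 25 were higher in members by a log2 ratio of at least 1, that is 2-fold (0.671% of genes), and 19 were lower by as much (0.51% of genes). Both counts include the rule's own genes, *Lypd1* and *Calb2*. The median ratio was 0.01, and 95.03% of genes lay within 0.5 of 0. Since both classes were drawn by measured values from the same cells, these ratios describe the classes and are not a test.

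With the rule's own genes left out, the highest ratio belonged to *Ccdc109b* (current symbol *Mcub*, chromosome 3, 129914960 to 129970206 on the minus strand in mm10), which encodes an inhibitory subunit of the mitochondrial calcium uniporter. Its level in members ran from 0 to 3.45 per 10000 with a median of 0.938, and in reference cells from 0 to 0.352 with a median of 0. In all, 155 of 180 members lay above every reference cell, and no reference cell reached the members' median. The members held 906 UMIs of this gene and the reference cells 4. Its ratio was 4.31 with the pseudocount, and the ratio of summed UMIs without it had an interval of 6.77 to 10.0.

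*Grm8* and *Pou4f1* followed a like pattern. *Grm8* (chromosome 6, 27275119 to 28135178) had a median of 0.856 and a highest value of 2.79 per 10000 in members, against 0 and 0.703 in reference cells, for a ratio of 3.73. *Pou4f1* (chromosome 14, 104461676 to 104467999) had a median of 0.882 and a highest value of 2.62, against 0 and 0.709, for a ratio of 2.99. For each of them more than 110 members (118 and 117) lay above every reference cell, and no reference cell lay above the members' median.

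*Sphkap*, which encodes an anchoring protein for protein kinase A, was high in part of the members only. Its level ran from 0 to 6.35 per 10000 with a median of 1.13 in members, 21 of which had no UMI, and from 0 to 1.31 with a median of 0 in reference cells. The classes overlapped more than for *Ccdc109b*, with 89 members above every reference cell. The ratio was 3.46 (interval for summed UMIs 3.65 to 4.21). *Prkar2b*, a regulatory subunit of the same kinase, was also higher in members (mean 0.921 against 0.302, ratio 1.46).

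Further genes had ratios of 1.19 to 2.66. *Rph3a* encodes rabphilin, an effector of Rab3 on synaptic vesicles. Its mean was 1.53 per 10000 in members and 0.287 in reference cells (ratio 2.23), while cells low in both marker genes had a mean of 13.6. *Pcsk2*, a protease that matures peptide precursors, was detected in every member, with a lowest value of 0.229 and a median of 1.66, against a median of 0.309 in reference cells (ratio 1.98). *Serpini1*, encoding the protease inhibitor neuroserpin, was also detected in every member (0.495 to 7.0, median 3.22) and had a median of 1.15 in reference cells (ratio 1.42); 100 members exceeded every reference cell. Among regulators of G protein signalling, *Rgs12* had a ratio of 1.93 and *Rgs10* of 1.28. *Rasgrf1*, a calcium-responsive activator of Ras, had a ratio of 1.84 but was uneven: 97 members had a UMI, and the highest reference cell (3.80) exceeded the highest member (2.15). The remaining genes among the 15 with the highest ratios were *Cd164l2* (2.66), *Rbfox3*, which encodes the neuronal nuclear antigen NeuN (1.42), the scaffold gene *Magi1* (1.32) and the long intergenic RNA *2900079G21Rik* (1.19).

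Apart from *Calb2*, which the rule used, the lowest ratio belonged to *B3gat1* (chromosome 9, 26733728 to 26763101 on the plus strand), which encodes the glucuronyltransferase that makes the HNK-1 carbohydrate. Its level ran from 0 to 1.08 per 10000 in members, of which 38 had a UMI, and from 0 to 4.1 with a median of 0.775 in reference cells, of which 187 had a UMI. The ranges overlapped: the highest member lay above the median of the reference cells, and no member exceeded the highest of them. The ratio was -2.97 (interval for summed UMIs -3.92 to -3.19). The Ib markers *Calb1* and *Ttn*, the latter encoding the muscle protein titin, had UMIs in 27 and 33 members against 122 and 127 reference cells, with ratios of -2.56 and -1.97. Among cells with little myelin-gene RNA the ratio of *Calb1* was -1.23. A member with 8.87 per 10000 of *Ttn* stood far above the members' median of 0. Of the Ia markers besides *Calb2*, *Rxrg* was seen in 5 members and 103 reference cells and *Pcdh20* in 12 and 68; both were below the minimum for a ratio, as was the Ib marker *Lrrc52*, seen in 4 and 58.

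*Cd24a*, encoding a small surface glycoprotein, was counted in 175 members and in every reference cell. Its median was 2.15 per 10000 (0 to 10.5) in members and 7.07 (up to 17.4) in reference cells, with overlapping ranges; 221 of 224 reference cells lay above the members' median and the ratio was -1.47. *Mdga1*, encoding a membrane-anchored protein that binds neuroligins, was detected in every cell of both classes with means of 2.10 and 4.97 (ratio -1.22). The zinc-finger factor *Casz1* had a ratio of -1.51 and the zinc-finger gene *Zfp804a* of -1.37. The muscle gene *Neb* (nebulin) had a ratio of -1.23 and the kinase gene *Cdk15* of -1.95. The remaining genes of the 15 lowest, *Pygl*, *Rasgrp2*, *Lancl3*, *Tanc1*, *Tmem229b* and *Lmbr1*, had ratios from -1.21 to -1.08. *Pygl* encodes a glycogen phosphorylase, *Rasgrp2* an activator of Rap, and *Tanc1* a postsynaptic scaffold protein.

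**Figure D2:**
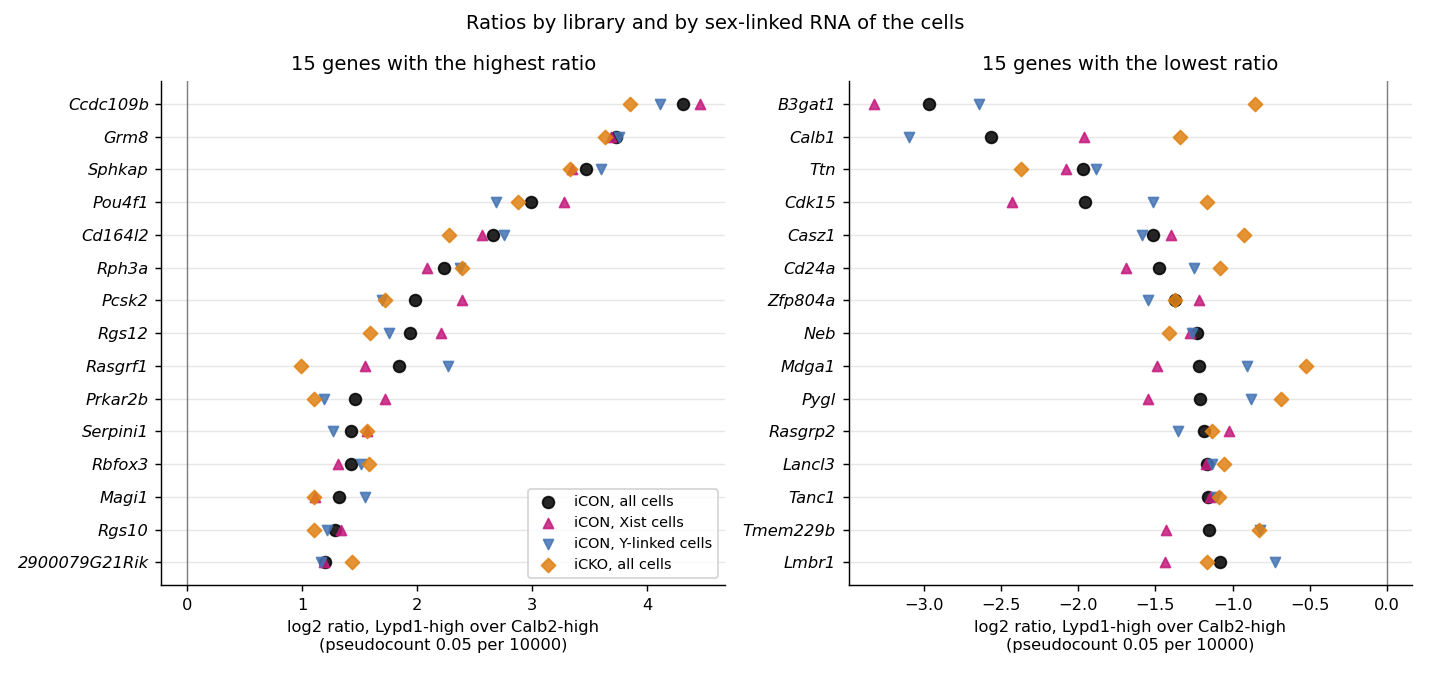
Log2 ratios of mean levels, *Lypd1*-high over *Calb2*-high cells, for the 15 genes with the highest (left) and the 15 with the lowest ratio (right) in the control library, for all control cells, *Xist* cells, cells with Y-linked RNA, and all iCKO cells. All plotted values of a gene lie on the same side of 0. Genes were ranked only if *Xist* and Y-linked control cells had the same sign, so that agreement was fixed by the choice. The iCKO values were not used in it. *B3gat1* lies at -2.97 in control and -0.85 in iCKO cells.

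The same contrast was taken in the iCKO library, which shares no cells with the control library but differs in genotype and so is no replicate of it. There, 126 cells passed the *Lypd1* rule and 253 were *Calb2*-high. Over the same genes 26 were higher (0.698%) and 15 lower (0.403%) by a log2 ratio of at least 1. Of the 25 genes higher in control members, 20 passed 1 in the iCKO library and 25 had the same sign; of the 19 lower genes, 13 passed and 19 had the same sign. Ratios were 3.85 for *Ccdc109b*, 3.63 for *Grm8*, 3.33 for *Sphkap*, 2.87 for *Pou4f1* and 2.39 for *Rph3a*, near the control values. They were smaller than in the control library for *Rasgrf1* (0.99 against 1.84), *Prkar2b* (1.10 against 1.46) and *Rgs12* (1.59 against 1.93). On the low side the iCKO ratios were -0.85 for *B3gat1*, -1.34 for *Calb1* and -0.53 for *Mdga1*, smaller in size than in the control library, and -2.37 for *Ttn*. The difference between the libraries' ratios was not tested.

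The reference cells differed among themselves. They were divided after the data were seen into 139 cells with *Calb2* of 1000 to 10000 CPM and 85 with at least 10000 CPM. *Xist* cells were 51 of the 139 and 55 of the 85. Cells with little myelin-gene RNA were 18.0% and 31.8%, and median depths were 47778 and 55533 UMIs. The part of these differences between both classes in the values below was not tested. *Ccdc109b* had means of 1.03 per 10000 in members, 0.0073 in the first of these classes and 0 UMIs in the second, which allows up to 0.0067 per 10000 (3 counts over the pooled cells; the exact Poisson interval plotted for this class ends at 0.0083). *Grm8* had 0.966, 0.036 and 0.011, and *Pou4f1* had 0.957, 0.12 and 0.0053. The means of these genes were thus low in both reference classes, although single reference cells reached 0.703 for *Grm8* and 0.709 for *Pou4f1*.

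A different pattern was seen for *Slc17a6* and *Ntng1*, and for *Runx1* itself. *Slc17a6*, the vesicular glutamate transporter VGLUT2, had means of 3.31 per 10000 in members, 2.32 in cells with *Calb2* of 1000 to 10000 CPM and 0.465 in cells above that. *Ntng1* had means of 2.25, 1.95 and 0.127. *Runx1* had means of 1.12, 1.07 and 0.159. For *Ntng1* and *Runx1* the members and the first reference class lay close together (ratios of 0.20 and 0.06), and the cells with the most *Calb2* were low.

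Among genes lower in members, the reference classes also differed. *Calb1* had means of 0.066 per 10000 in members, 0.966 in cells with *Calb2* of 1000 to 10000 CPM and 0.095 in cells above that. *Ttn* had 0.181, 1.31 and 0.111, so that its ratio turned to 0.52 against the second class alone. *Mdga1* went the other way, with 2.10, 2.42 and 9.14, and *B3gat1* rose from 0.07 to 0.542 and 1.46. Low *Calb1* and *Ttn* in members thus stood against the first class, and low *Mdga1* against the second. Against the first class 17 genes were higher (0.455%) and 10 lower (0.268%), and against the second 61 were higher (1.62%) and 36 lower (0.954%); these contrasts share the members.

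**Figure D3:**
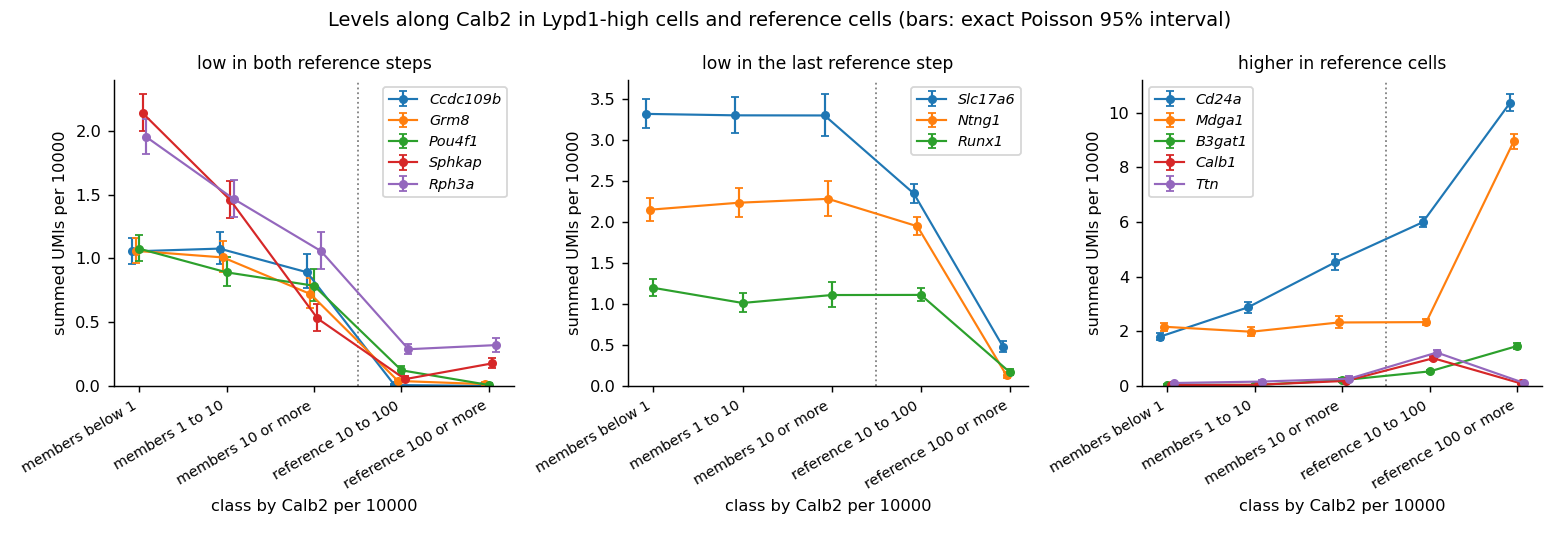
Summed UMIs per 10000 with exact Poisson 95% intervals for 13 genes in 3 classes of *Lypd1*-high cells and 2 classes of reference cells ordered by *Calb2* (UMIs per 10000); the dotted line parts members from reference cells. *Sphkap* falls along the members from 2.14 to 0.529, while *Slc17a6*, *Ntng1* and *Runx1* are level across the members and low in the last reference class.

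Members varied among themselves along *Calb2*. They comprised 84 cells with *Calb2* below 100 CPM, 56 with 100 to 1000 CPM and 40 with at least 1000 CPM, and the median of *Lypd1* in these classes was 44.1, 42.2 and 35.9 per 10000. The member with the most *Calb2* (169.1 per 10000) had 93322 UMIs, the most of any control cell, and was the only control cell called a doublet. The next members had 74.7 and 56.1 per 10000 and were not called. *Calb2* was thus graded over the members rather than confined to that cell.

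Besides *Calb2*, *Sphkap* had the largest ratio in size along this order among the genes past the minimum. Its means were 2.15, 1.40 and 0.531 per 10000 from the lowest to the highest *Calb2* class, a log2 ratio of -1.92 between the outer classes (interval for summed UMIs -2.32 to -1.72), and -2.06 and -2.01 in cells with *Xist* and with Y-linked RNA. *Cd24a* went the other way, with 1.79, 2.79 and 4.22 (ratio 1.21). Over the 178 members deep enough to thin to 20000 UMIs, Spearman's rho with *Calb2* was -0.38 for *Sphkap* and 0.37 for *Cd24a*; in 125 iCKO members the values were -0.12 and 0.67. The cells of each value share a library, and the values are descriptions. Of 3754 genes, 3 were higher (0.0799%) and 5 lower (0.133%) by a log2 ratio of at least 1 in members with *Calb2* of at least 1000 CPM, *Calb2* itself included. The others were *Cd24a* and the collagen gene *Col27a1* (1.01) on the high side, and *Sphkap*, the adhesion receptor gene *Adgrl2* (-1.13), *Mfap3l* (-1.12), the matrix gene *Mgp* (-1.13) and the BMP antagonist gene *Sostdc1* (-1.07) on the low side. In cells with *Xist* and with Y-linked RNA the ratios were 1.31 and 1.07 for *Cd24a*, 1.56 and 0.48 for *Col27a1*, and -0.56 and -1.82 for *Sostdc1*. They were -1.37 and -0.98 for *Adgrl2*, -0.99 and -1.38 for *Mfap3l*, and -0.84 and -1.39 for *Mgp*, so apart from *Sphkap* and *Cd24a* each fell short of 1 in size in cells of 1 sex. *Xist* cells were 54 of the 84 members with the least *Calb2* and 19 of the 40 with the most. Cells with little myelin-gene RNA were 10.7%, 16.1% and 27.5% of members from the lowest to the highest *Calb2* class. The part of these differences in the ratios was not tested.

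Other genes with high ratios varied less over the same order, to different degrees. All 25 genes higher in members than in reference cells, *Lypd1* included, had ratios of the outer classes below 0. Of the 19 lower genes, *Calb2* included, 18 had ratios above 0. The median over all genes past the minimum was 0.01. Both contrasts use the same members, and *Calb2* defines the reference cells as well as this split. These counts are thus not independent of how the genes were chosen, and they describe the cells only. *Grm8* had means of 1.04, 1.02 and 0.733 per 10000 (ratio of the outer classes -0.48) and *Pou4f1* of 1.07, 0.901 and 0.795 (-0.41). The ratio was -0.66 for *Cd164l2*, -0.81 for *Rgs10* and -0.88 for *Rasgrf1*, so these genes were also lower where *Calb2* was high. Nearly level were 3 genes chosen after their values were seen: *Ccdc109b* had means of 1.05, 1.06 and 0.928 per 10000, *Slc17a6* of 3.32, 3.29 and 3.31, and *Runx1* of 1.19, 1.0 and 1.12. *Rgs12* (0.768, 0.710 and 0.368) and *Rph3a* (1.87, 1.40 and 1.01) decreased in the same order as *Sphkap*. Members with the most *Calb2* therefore kept *Ccdc109b* at levels far above reference cells of overlapping *Calb2*, where it was 0.0073.

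Members were also described by the ratio of variance to mean of each gene after thinning. The rule's gene *Calb2*, left out of the ranking, had a ratio of 74.2. *Rn45s*, the precursor of ribosomal RNA, had a ratio of 462 and ran from 19.1 to 1001 per 10000 with a median of 50.2. The nuclear long noncoding RNAs *Malat1* and *Meg3* had ratios of 80.2 and 39.4, and the ferritin gene *Fth1* of 12.1. *Pmp22*, a myelin gene of Schwann cells, and the secreted-protein genes *Spp1*, *Sostdc1* and *Igfbp6* had ratios of 8.28 to 9.96. For comparison, the ratio was 5.88 for *Lypd1*, 2.72 for *Sphkap* and 1.46 for *Ccdc109b*.

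Gene lists for neuronal functions, chosen with earlier results of these data known, were mostly level between members and reference cells. The counts below stand beside 0.671% of all genes higher and 0.51% lower by as much; the lists are short, and nothing is read from a count of 1 or 2. Of 15 potassium channel genes past the minimum (53 listed) none passed a log2 ratio of 1 in size, and the median was 0.11. The most different were *Kcnk1*, which encodes the leak channel TWIK1 (mean 4.93 against 8.24, ratio -0.73), and the auxiliary subunit genes *Kcnip2* (0.61), *Kcnab2* (0.60) and *Kcnip1* (0.48). Of 9 sodium, HCN and calcium channel genes none passed, with a median of 0.01; *Hcn2*, which encodes a channel of the hyperpolarization-activated current, had a ratio of -0.43. Of 82 nuclear-encoded genes of oxidative phosphorylation none passed, with a median of -0.04.

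Genes of transmission differed in single members of their lists. Of 21 transmitter release genes 2 were higher, *Slc17a6* (ratio 1.01) and *Sncg*, encoding gamma-synuclein (1.04), and none lower, with a list median of 0.01. *Slc17a7*, the transporter VGLUT1, was detected in every cell of both classes with means of 4.33 and 5.78 (-0.41), and the calcium sensor gene *Syt7* had a ratio of -0.81. Of 6 glutamate receptor genes only *Grm8* passed (median 0.06), and of 3 GABA and glycine receptor genes none did (median 0.24). None of the 6 listed nicotinic receptor subunit genes reached the minimum in either class. Of 3 Ly6 family genes only *Lypd1*, the rule's own gene, passed.

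Of 18 calcium buffer and sensor genes, *Calb1* and the rule's own *Calb2* were lower by 1 or more, none was higher and the median was 0.02; the sensor gene *Vsnl1* had a ratio of 0.59 and the sodium-calcium exchanger gene *Slc24a2* of -0.67. Of 18 synaptic adhesion genes only *Mdga1* passed, on the low side (median -0.02), with *Ntng1* at 0.82 and *Adgrl2* at 0.63. Of 18 transcription regulators *Pou4f1* was higher and *Casz1* lower (median 0.00). The chromatin organizer gene *Satb1* had a ratio of 0.95, the factor gene *Maf* of -0.90 and *Runx1* of 0.59 (interval for summed UMIs 0.49 to 0.77). Of 16 genes of G proteins and their regulators 2 were higher, *Rgs12* and *Rgs10*, with a median of 0.19. Of 20 genes of neurofilaments and the axonal cytoskeleton none passed (median -0.16), with *Stmn4* at -0.65; the list also holds *Spock3* (-0.50), which encodes a secreted proteoglycan rather than a cytoskeletal protein; of 8 axon guidance genes none passed (median -0.32), with *Efnb2* at -0.60 and *Sema3e* at -0.59. Of the neurotrophin and GDNF receptor genes *Ntrk3* had a ratio of 0.41 and *Ntrk2* of 0.24. The 4 glial genes past the minimum had a median of 0.18 and the 2 dissociation genes one of 0.04.

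**Figure D4:**
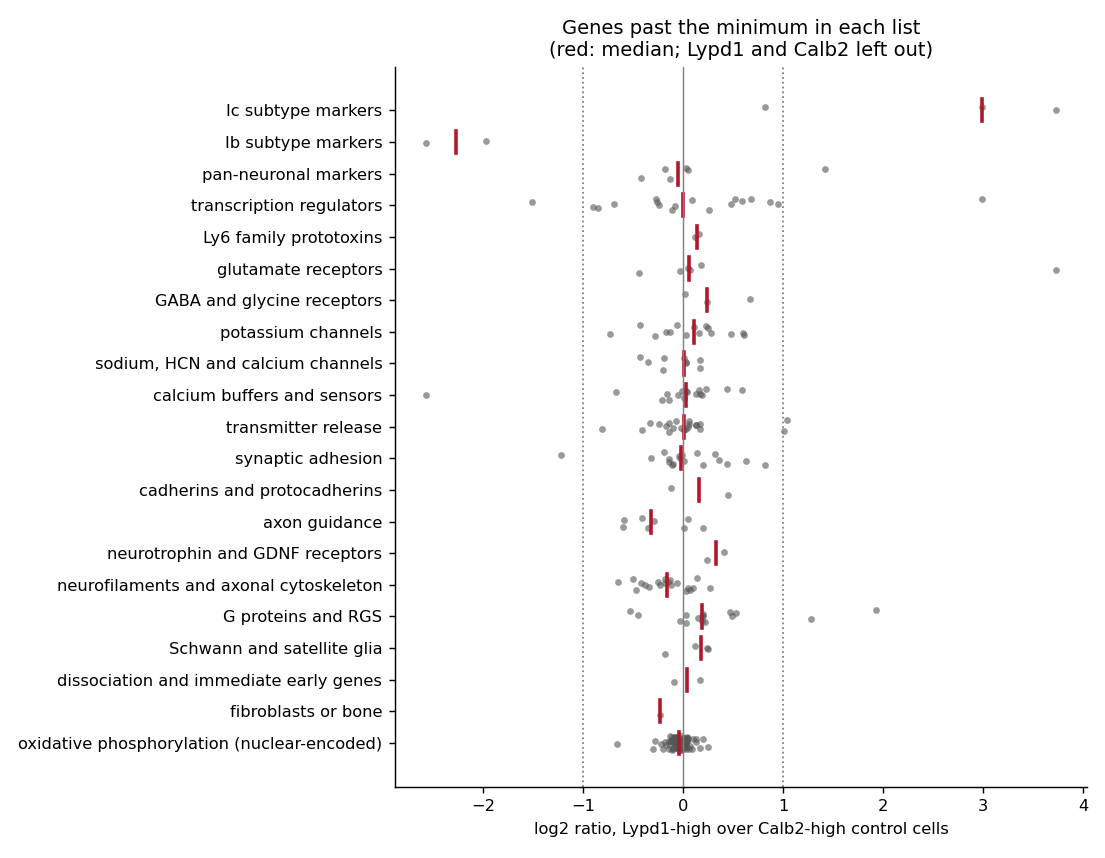
Log2 ratios of *Lypd1*-high over *Calb2*-high control cells for the genes past the minimum in each list shown. The rule's own genes *Lypd1* and *Calb2* are left out, and with *Calb2* the Ia marker list. The list of sex-linked genes (median 0.41) is not shown either. Grey points are genes, red bars are medians, dotted lines mark a ratio of 1 in either direction; apart from the Ic and Ib marker lists, medians lie between -0.32 and 0.33.

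Promoters were read for the genes with the highest and lowest ratios, because *Runx1* and *Pou4f1* encode DNA-binding factors; all 15 of the highest and 12 of the lowest genes had a listed promoter. Sequences were taken from RefSeq promoters of GRCm38.p6, from 250 bases before to 50 after each annotated start, and were searched on both strands for TGTGGT (reverse complement ACCACA), the core bound by RUNX factors. It occurred in 4 of 24 promoters (16.7%) of the 15 genes with the highest ratios, in 2 of 16 (12.5%) of those with the lowest, and in 16.8% of all 32851 promoters. The letters ATAATTA (reverse complement TAATTAT), known as a POU4F core, occurred in 1 of 24 (4.17%), 0 of 16 and 2.7%. The share for the highest genes was near that of all promoters, so a match is a description only. A promoter each of *Lypd1* (chr1:125912165-125912464), *Sphkap* (chr1:83408151-83408450) and *Rph3a* (chr5:121010043-121010342), all on the minus strand, is shown 5′ to 3′. These genes were higher in members than in *Calb2*-high cells, and the promoters shown were picked because they have a match. *Lypd1*, the rule's own gene, is not among the 15 counted genes. Its promoters at chr1:125912879-125913178 and chr1:125911338-125911637 have 0 matches, as has that of *Rph3a* at chr5:121009489-121009788. The *Rph3a* promoter at chr5:121008435-121008734 has 1. Capitals mark the RUNX core letters.
Lypd1: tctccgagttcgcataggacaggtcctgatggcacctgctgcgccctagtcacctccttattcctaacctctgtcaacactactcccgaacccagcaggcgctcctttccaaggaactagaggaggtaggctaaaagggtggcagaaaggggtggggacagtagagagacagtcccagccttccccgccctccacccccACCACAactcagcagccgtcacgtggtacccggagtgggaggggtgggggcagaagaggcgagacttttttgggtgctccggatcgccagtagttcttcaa
Sphkap: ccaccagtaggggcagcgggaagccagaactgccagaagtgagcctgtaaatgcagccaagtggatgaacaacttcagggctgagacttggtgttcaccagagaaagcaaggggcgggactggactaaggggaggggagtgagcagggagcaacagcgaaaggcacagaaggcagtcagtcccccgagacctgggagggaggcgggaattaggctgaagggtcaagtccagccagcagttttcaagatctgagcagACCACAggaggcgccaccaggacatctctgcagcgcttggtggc
Rph3a: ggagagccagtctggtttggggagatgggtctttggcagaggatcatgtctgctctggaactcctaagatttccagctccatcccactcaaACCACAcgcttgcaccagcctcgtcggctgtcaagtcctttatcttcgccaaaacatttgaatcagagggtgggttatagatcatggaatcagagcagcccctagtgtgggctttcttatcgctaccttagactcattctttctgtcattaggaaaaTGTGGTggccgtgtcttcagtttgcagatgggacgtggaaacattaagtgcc

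The *Lypd1*-high cells of both libraries were set side by side. With 1 library per genotype, genotype and library cannot be told apart. The libraries also differed in depth (medians of 50681 and 33944.5 UMIs per cell in these classes) and in the share of cells with *Xist* RNA (97 of 180 and 103 of 126). Cells with little myelin-gene RNA were 16.1% of control and 31.7% of iCKO members, with medians of 207 and 84.5 myelin-gene UMIs. Hair cell genes gave 22 UMIs in control and 466 in iCKO members, where the highest cell had 73.9 per 10000. The part of these differences in the values below was not tested. Members were 31.0% of the iCKO library (26.5% to 35.7%), against 39.0% of the control library. RNA of the targeted gene was not lower in the iCKO cells: *Runx1* had a mean of 1.12 per 10000 in control and 1.44 in iCKO cells (ratio 0.36, interval for summed UMIs 0.22 to 0.52). The assay counts the 3′ ends of transcripts and the floxed part of the gene is not given in the labels, so this value does not check the deletion.

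The type Ic markers other than *Lypd1* had close means in both libraries. Means in control and iCKO cells were 0.966 and 0.877 for *Grm8*, 0.957 and 1.08 for *Pou4f1*, and 2.25 and 2.08 for *Ntng1*. *Sphkap*, which is on no marker list, had means of 1.56 and 1.51. The rule's gene *Lypd1* had means of 40.6 and 32.4. *Calb2* did differ, with a median of 1.81 per 10000 in control cells and 43.2 in iCKO cells. The ranges overlapped widely (0 to 169.1 and 0 to 192.1). In *Calb2*-high cells, which were chosen by *Calb2*, its median was 69.7 in the control and 190.0 in the iCKO library.

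Of 3793 genes, 11 were higher (0.29%) and 6 lower (0.158%) by a log2 ratio of at least 1 in the *Lypd1*-high cells of the library labelled iCKO. *B3gat1*, which was low in control members, had means of 0.070 in control and 0.869 in iCKO cells (ratio 2.93). *Sh3bgr* had 0.197 and 1.68 (2.81) and *1700026D08Rik* had 0.145 and 0.741 (2.02; 2.63 in *Xist* cells and 1.15 in cells with Y-linked RNA). *Col27a1* had 0.403 and 1.21 (1.47) and *Mdga1* 2.10 and 5.80 (1.44). The carbonic anhydrase genes *Car12* and *Car2* had ratios of 1.25 and 1.07, *Tmem229b* had 1.11, *Pygl* 1.06 and *Eid2* 1.32. *Calb1* had means of 0.066 and 0.493 and *Cd24a* of 2.64 and 5.13 (ratio 0.94; 1.18 in *Xist* cells and 0.24 in cells with Y-linked RNA), while *Ttn* had 0.181 and 0.033. This contrast and that with the *Calb2*-high cells share the control members, so their values are given side by side only. Several of these genes were also higher in iCKO than in control *Calb2*-high cells. Control and iCKO means there were 0.892 and 1.61 for *B3gat1*, 4.97 and 8.37 for *Mdga1*, and 0.193 and 0.460 for *Eid2*. They were 0.661 and 0.987 for *Col27a1* and 0.320 and 0.594 for *1700026D08Rik*. Whether any difference was particular to *Lypd1*-high cells was not tested.

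**Figure D5:**
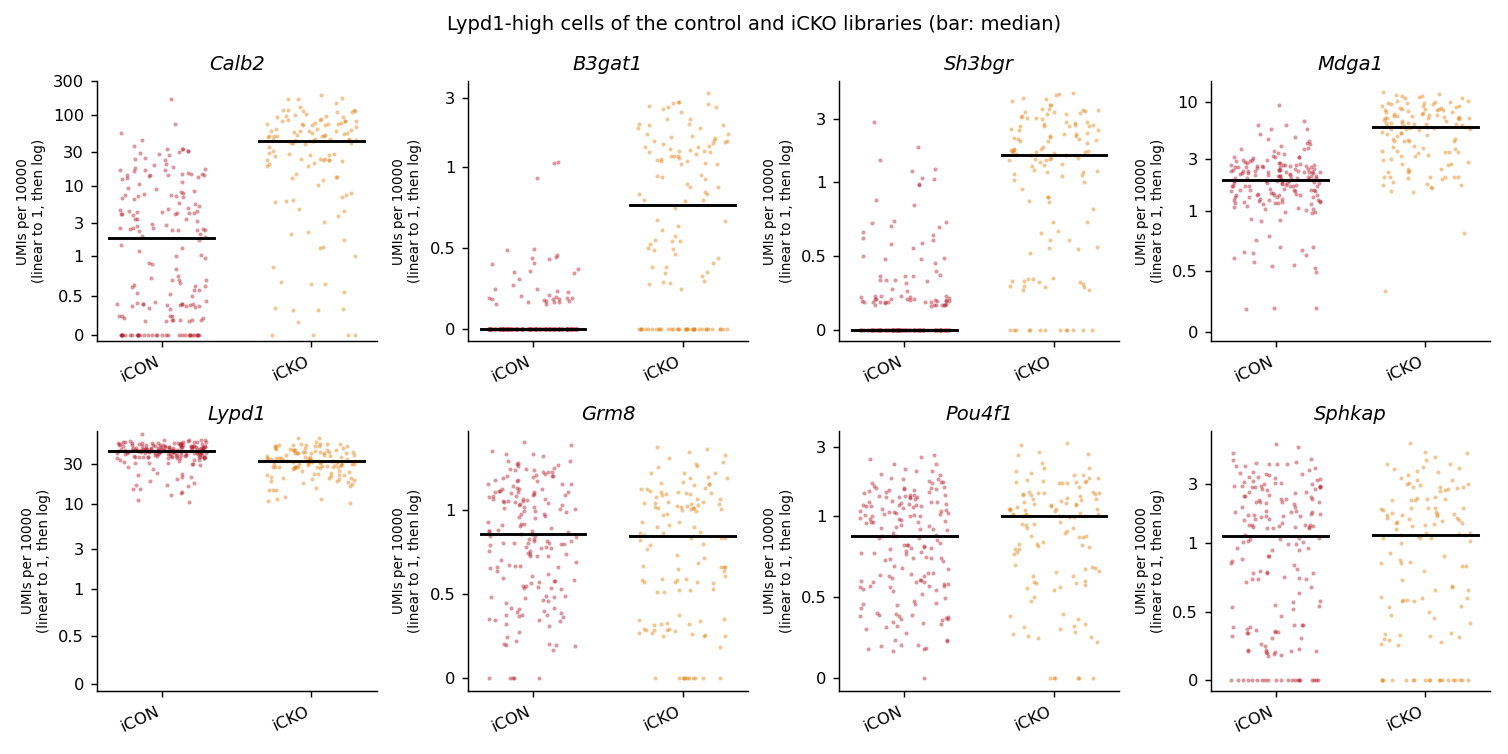
Levels of 8 genes in *Lypd1*-high cells of the control (180 cells) and iCKO (126 cells) libraries, in UMIs per 10000 on a scale that is linear to 1 and logarithmic above. Points are cells and bars are medians; *Calb2*, *B3gat1*, *Sh3bgr* and *Mdga1* have higher medians in iCKO cells, and *Grm8*, *Pou4f1* and *Sphkap* have close ones.

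Sex-linked RNA was used to view these values within cells of each sex. Cells with Y-linked RNA were 79 of the control members and only 20 of the iCKO members. For *B3gat1* the iCKO over control ratio was 3.18 in *Xist* cells and 2.47 in cells with Y-linked RNA, and for *Sh3bgr* 2.76 and 2.88. For *Col27a1* it was 2.22 and 0.58, for *Car2* 1.21 and 0.59, and for *Pygl* 1.35 and 0.55. In cells with Y-linked RNA these genes were thus below the 2-fold limit. On the low side *Cd302* had a ratio of -1.11 (-1.13 and -0.68 by sex) and *Jam3*, encoding a junctional adhesion molecule, of -1.03 (-0.96 and -1.14). The lowest was *Gm1821* at -3.84, a gene model that resembles ubiquitin and may share reads with near-identical copies, so its value is uncertain. It was -7.0 in *Xist* cells and -1.10 in cells with Y-linked RNA. These genes were also lower in iCKO than in control *Calb2*-high cells. Control and iCKO means there were 8.77 and 0.438 for *Gm1821*, 0.690 and 0.384 for *Cd302*, and 0.545 and 0.323 for *Jam3*.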

How the data were processed

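Single-cell RNA was measured in 2 libraries with the 10x Genomics 3′ assay v3, per the labels. Cell Ranger, Seurat and the build mm10 are named in the submitters' processing notes, with no role or version; filters are not given in the sources used here. Values of the deposited table are ln(CPM + 1), a natural log, for 14425 genes in each cell; this was settled from the values, since 100% of nonzero linear values were whole multiples of each cell's smallest step within 1e-06. Whole UMIs were computed from it. The deposited annotation assigns each barcode to a library, and 0 columns were left without one.

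Levels are mean UMIs per 10000 (CPM divided by 100). Ratios add 0.05 to each mean; intervals for ratios and shares are exact Poisson and binomial (Clopper-Pearson) intervals of UMIs or cells. Genes passed a mean of 0.5 per 10000 and a UMI in 25% of cells. A cell counted as *Xist* or Y-linked when it had RNA of that kind alone. Scrublet, in scanpy 1.11.5, called 1 of 462 control and 4 of 407 iCKO cells doublets, which were kept. Python 3.11.15, numpy 2.4.6, scipy 1.17.1 and pandas 2.3.3 were used, and the ratio steps were tested on simulated data.

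The named genes were all subtype markers, up to 4 genes with the largest ratios of each of the other lists, the 15 highest and 15 lowest ratios with the same sign in *Xist* and Y-linked cells, the 10 most variable genes, and *Runx1*. The members and the 30 lists were chosen with earlier results of these data known. The other genes named for the split of members by *Calb2* and for the iCKO library were chosen by the size of their ratio, after values were seen. Of 128 named symbols 127 matched GENCODE M21, 4 through synonyms. Some genes of this rule are not reported here. Alternatives changed the pseudocount, thresholds, reference, depth, minimum and cells used.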

Additional observations from a re-analysis of the deposited data

How the results depend on the processing

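No paired analysis was possible because there was 1 library per genotype and the comparison came from no test. The share of members was 36.1% to 39.6% at *Lypd1* limits of 500 and 2000 CPM and after thinning, within the counting interval of 39.0%; the 28.7% among cells with little myelin-gene RNA was outside it. The 25 higher and 19 lower genes (8 and 5 of them in the lists) became 10 and 6 (4 and 3 in the lists) with a pseudocount of 0.5, and 81 and 65 (17 and 14) with no minimum. With all other control cells as reference 31 were lower (5 higher and 10 lower in the lists), and *Rph3a* turned to -0.24. With *Xist* cells only, 3 list genes were lower, and with low myelin-gene RNA only, 48 genes were higher. Alternatives chosen after seeing the data used parts of the reference: with *Calb2* of 1000 to 10000 CPM 10 genes were lower and 5 list genes higher; with at least 10000 CPM 61 were higher and 36 lower (16 and 9 in the lists), and *Ttn* turned to 0.52. For iCKO over control members, 11 higher and 6 lower genes became 4 and 2 with a pseudocount of 0.5, and the lower genes became 11 in *Xist* cells and 15 in cells with Y-linked RNA. The cause of these shifts was not tested. Without doublets, thinned or at other *Lypd1* limits the counts stayed within 1.5 times the main ones. Single-gene ratios stayed within counting error in 1259 of the combinations of gene and setting, moved in 371 and reversed in 2. Genes near 1 UMI per cell are limited by depth, and no value covers differences between animals.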

Other observations

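The control cells that were neither *Lypd1*-high nor *Calb2*-high were of different kinds. The 26 cells between the *Lypd1* limits had 1.2 to 7.62 UMIs per 10000 of *Lypd1* and 12.1 to 83.9 of *Calb2*. Their means were 0.256 per 10000 for *Ccdc109b*, 0.256 for *Grm8* and 0.103 for *Sphkap*, against 1.03, 0.966 and 1.56 in members, while *Runx1* (1.37), *Ntng1* (2.24) and *Slc17a6* (3.17) stood beside 1.12, 2.25 and 3.31 in members. The Ib markers *Calb1* (0.684) and *Ttn* (1.14) were above the members' 0.066 and 0.181.

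The 32 cells low in *Lypd1* and *Calb2* had a median summed level of type II neuron markers of 16.3 per 10000, against 0.241 in members, with no *Pou4f1* UMI. *Rph3a*, among the genes with the highest ratio in members, had a mean of 13.6 per 10000 in them and 1.53 in members. Of these cells 31 had *Xist* RNA and 1 had Y-linked RNA, and their median depth was 32141 UMIs, below the members' 50681.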
